A study of Mus musculus with 24 samples.

Results

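Clotting and clot removal in the injured mouse heart were followed through 9 genes of the coagulation and plasminogen system: the plasminogen activators Plau and Plat, the urokinase receptor Plaur, the anticoagulant receptors Thbd and Procr, tissue factor (F3), its inhibitor Tfpi, the related inhibitor Tfpi2, and von Willebrand factor (Vwf). The genes were taken by symbol from the 46078 genes counted in the deposited files. All 9 passed the filter on low counts and were tested.

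Clotting starts when tissue factor on cells outside the bloodstream meets clotting factors in the blood, and it ends in thrombin and fibrin. Vessel walls hold this back with Tfpi, which blocks tissue factor, and with thrombomodulin (Thbd) and the endothelial protein C receptor (Procr), which together turn thrombin toward activation of the anticoagulant protein C. Fibrin is removed by plasmin, which tissue-type activator (Plat) and urokinase (Plau) cut from plasminogen. Urokinase bound to its receptor (Plaur) works at the surface of cells, where it also takes part in cell migration.

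Every sample was heart tissue of C57BL/6 mice, an inbred laboratory strain, and wild-type per the series' design text. The 8 groups were sham surgery, ischemia (loss of blood flow) of 45 min with no reperfusion, and the same ischemia followed by 0.5, 1, 1.5, 3, 6 or 12 h of reperfusion, the return of flow. Each group held 3 libraries of total RNA made with an Illumina TruSeq kit. The labels give no age, no time of harvest for the sham hearts, and no part of the heart. Nothing in them says that replicates were separate animals, so each p-value measures the spread between these libraries, which may be technical.

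Libraries held 13407465 to 17181458 uniquely mapped reads in genes. Levels were expressed in CPM (counts scaled to library size with TMM factors). By library totals alone, without TMM factors, 3 reads equalled 0.175 to 0.224 CPM. Reads of mitochondrial genes made up 28.9% to 33.2% of the sham libraries, 19.0% to 30.2% of the ischemia libraries and 19.0% to 21.3% of those at 6 h. The 10 markers of ventricular heart muscle were present in every group. They summed to 66219 to 69473 CPM in sham, 58106 to 64988 CPM at 6 h and 46917 to 56433 CPM at 12 h. Against sham, 5 were called higher and 2 lower at 3 h, and 0 higher and 4 lower at 6 h and at 12 h. Hepatocyte markers, from the tissue that makes most plasma clotting factors, summed to at most 1.76 CPM. Neutrophil markers summed to 4.79 to 10.5 CPM in sham, 39.8 to 92.4 CPM at 3 h, 145 to 289 CPM at 6 h and 215 to 251 CPM at 12 h. In bulk tissue, fewer cells of a type and less RNA per cell cannot be told apart.

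A gene was called where edgeR's quasi-likelihood test gave a Benjamini-Hochberg adjusted p under 0.05 over 15128 tested genes. Against sham, 2 of the 9 genes were called at 0.5 h, 2 at 1 h, 3 at 1.5 h, 5 at 3 h, 8 at 6 h and 3 at 12 h. Plaur was higher at all 6 reperfusion times, Thbd from 1.5 h on, Plat from 1 h to 6 h, Procr and Tfpi2 at 3 h and 6 h, and Plau at 6 h. The calls toward lower levels were Tfpi at 0.5 h and 6 h and F3 at 6 h and 12 h. Over the 8 groups, 7 of the 9 genes changed and Tfpi (adjusted p = 0.15) and Vwf (adjusted p = 0.30) were not called. The call of Plau (adjusted p = 0.0274) was lost without replicate 1 or 3 of sham (0.0542 and 0.0544), without replicate 2 or 3 of 6 h (0.112 and 0.126) and with limma-voom (0.0732), over a range of 0.00276 to 0.126.

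These counts stood beside a wide response of the whole transcriptome. Of all tested genes, 7.43% were called higher and 4.48% lower at 0.5 h, 7.46% and 3.41% at 1 h, 4.55% and 2.99% at 1.5 h, 18.4% and 16.9% at 3 h, 24.6% and 22.9% at 6 h, and 16.9% and 14.9% at 12 h. Across the 8 groups 64.3% of tested genes changed, beside 7 of the 9. The median log2 fold change of the 9 genes was 0.94 at 3 h, 0.96 at 6 h and 0.60 at 12 h, where the median over all tested genes was -0.01, -0.01 and 0.01. Scaling by library totals in place of TMM moved the median of all genes to 0.12 at 0.5 h and 0.23 at 12 h, and the called genes at 12 h went from 2551 higher and 2256 lower to 4079 higher and 1229 lower. At 0.5 h they went from 1124 higher and 678 lower to 1629 and 230, and at 1 h from 1129 and 516 to 1162 and 261. No called change of the 9 genes turned direction under that scaling. Leaving out 1 library of the groups compared also moved the early counts. At 0.5 h they fell to as few as 446 higher and 157 lower (without 0.5 h replicate 1), at 1 h to 441 and 118 (without 1 h replicate 1) and at 1.5 h, from 689 and 452, to 356 and 147 (without 1.5 h replicate 3). Leaving out any one sham library lowered the counts at these 3 times as well, to between 421 and 698 higher and 170 and 294 lower.

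**Figure D1:**
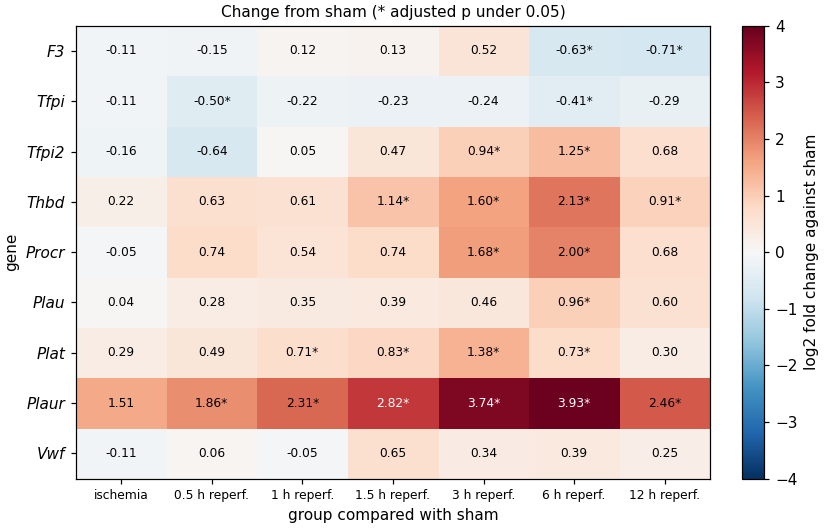
The color map gives the log2 fold change against sham of each of the 9 genes (rows) in ischemia and at each reperfusion time (columns), fitted over all 24 libraries, and a star marks an adjusted p under 0.05. Plaur holds the largest values of the map, up to 3.93 at 6 h, and F3 passes from 0.52 at 3 h to -0.63 at 6 h.

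After ischemia alone the genes were close to their sham levels, apart from Plaur. The edgeR test called 0 of the 9 genes (0.0925% of all tested genes), 1 had an unadjusted p under 0.05 (Plaur), and limma-voom and DESeq2 also called 0. Neighbouring early times had few calls as well. For 0.5 h against ischemia edgeR called 0 of the 9 (0.0331% of all tested genes), with 1 at an unadjusted p under 0.05 (Tfpi). The share over all genes rested on 1 library: without ischemia replicate 3, which had 19.0% mitochondrial reads (29.7% and 30.2% in the other two) and 41.2% duplicates (54.5% and 52.7%), 666 genes were called higher and 490 lower in place of 5 and 0, and of the 9 genes Tfpi was called. For 1 h against 0.5 h it called 0 (0% of all tested genes), with 1 at an unadjusted p under 0.05 (Tfpi2), and for 1.5 h against 1 h 0 (0.0661%), with 2 at an unadjusted p under 0.05 (Thbd and Vwf). Both limma-voom and DESeq2 also called 0 of the 9 in these 3 comparisons.

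Plaur (ENSMUSG00000046223, chromosome 7, 24462484 to 24475968 of GRCm38), the membrane-anchored receptor of urokinase, had the largest fold change of the 9 genes. Its level was 2.76, 2.40 and 3.04 CPM in the sham libraries, 4.56, 7.84 and 10.8 CPM after ischemia and 10.1, 4.67 and 15 CPM at 0.5 h. It was 17, 13.3 and 10.4 CPM at 1 h, 19.6, 12.7 and 25.6 CPM at 1.5 h and 33.4, 32.7 and 43.0 CPM at 3 h. At 6 h it was 32.7, 57.6 and 34.8 CPM, and at 12 h 9.28, 17.6 and 18.3 CPM. No library of any other group fell into the sham range, and the 12 h libraries lay below every library of 3 h and 6 h.

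Against sham, the log2 fold change of Plaur was 1.86 ± 0.40 (SE) at 0.5 h (adjusted p = 0.00549), 2.31 ± 0.40 at 1 h (adjusted p = 0.000681) and 2.82 ± 0.39 at 1.5 h (adjusted p = 3.53e-05). It reached 3.74 ± 0.39 at 3 h (adjusted p = 2.55e-07) and 3.93 ± 0.39 at 6 h (adjusted p = 3.06e-08), a 15.3-fold difference from sham. After ischemia alone the value was 1.51 ± 0.41 and was not called (adjusted p = 0.24). Of 14 alternatives, the one with no filter on low counts called it, and adjusted p ran from 1.2e-10 to 0.86. From 6 h to 12 h Plaur fell by 1.47 ± 0.33 on the log2 scale (adjusted p = 0.0043), and with limma-voom that fall was not called (adjusted p = 0.0575, range over alternatives 6.28e-16 to 0.0575). At 12 h it remained above sham by 2.46 ± 0.39 (adjusted p = 4.45e-05).

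Neutrophils and monocytes also carry the urokinase receptor, and their markers moved with Plaur at some times and apart from it at others. Of 14 neutrophil markers 10 were tested, and 5 were called higher at 0.5 h, 5 at 1 h, 8 at 1.5 h, 9 at 3 h and 10 at 6 h and 12 h. The 8 monocyte markers summed to 32.5 to 40.6 CPM in sham, 49.6 to 64.5 CPM at 3 h, 126 to 166 CPM at 6 h and 132 to 168 CPM at 12 h, with 3 of 8 called higher and 1 lower (Ccr2) at 3 h and 8 of 8 higher at 6 h and 12 h. At the earlier times, when Plaur was already called higher, 2 of the 8 were called lower at 0.5 h (Ly6c2 and Ccr2) and 1 each at 1 h and 1.5 h (Ccr2). Between 6 h and 12 h both sums kept overlapping ranges while Plaur fell out of its 6 h range. Over that step the median log2 fold change of the 10 tested neutrophil markers was -0.70, with 0 called higher and 1 lower. That of the 8 monocyte markers was 0.02, with 1 called higher and 0 lower. How much of the Plaur reads came from these cells was not tested.

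**Figure D2:**
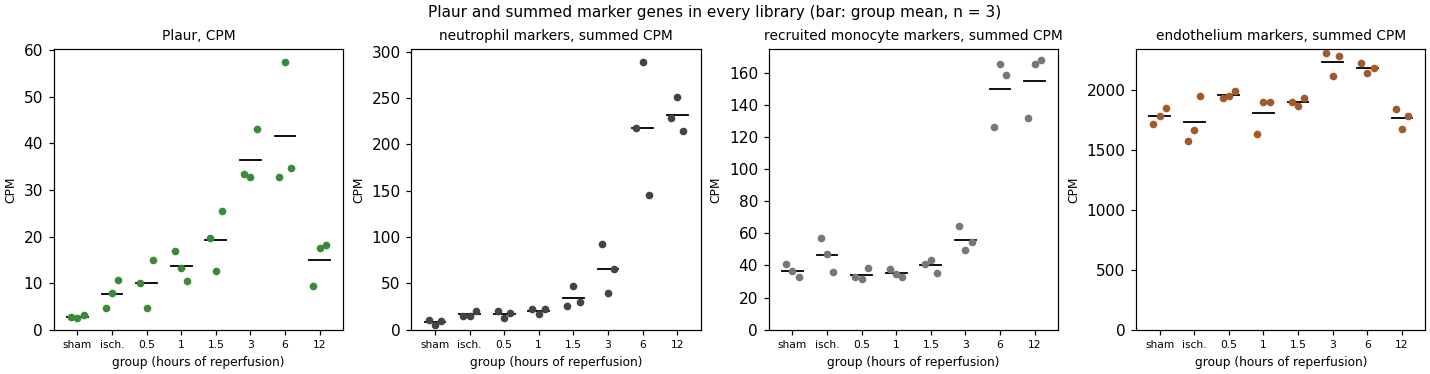
Each point is 1 of the 24 libraries, grouped by hours of reperfusion on the horizontal axis, with level in CPM on a vertical axis that starts at 0 and a bar at each group mean. Plaur is at 32.7 to 57.6 CPM at 6 h and 9.28 to 18.3 CPM at 12 h, while the summed neutrophil markers are at 145 to 289 and 215 to 251 CPM, and the endothelial sum stays between 1575 and 2311 CPM throughout. From 6 h to 12 h the median log2 fold change of the 10 tested neutrophil markers is -0.70.

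Plat (ENSMUSG00000031538, chromosome 8, 22757727 to 22782844), tissue-type plasminogen activator, rose to a peak at 3 h. It was at 28.4, 22.5 and 23.0 CPM in sham, 28.1, 30.0 and 32.5 CPM after ischemia, 32.6, 28.7 and 42.4 CPM at 0.5 h and 38.8, 44.3 and 38.3 CPM at 1 h. At 1.5 h it was 49.5, 35.8 and 46.2 CPM, at 3 h 62.0, 55.2 and 75.8 CPM, at 6 h 44.7, 43.8 and 34.3 CPM and at 12 h 31.3, 35.3 and 24.5 CPM. All libraries from 0.5 h to 6 h were above all sham libraries, the 3 h libraries were above every other library, and at 12 h the range reached back into that of sham.

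The log2 fold change of Plat against sham was 0.71 ± 0.17 (SE) at 1 h (adjusted p = 0.0076), 0.83 ± 0.17 at 1.5 h (adjusted p = 0.0024), 1.38 ± 0.17 at 3 h (adjusted p = 1.39e-06) and 0.73 ± 0.17 at 6 h (adjusted p = 0.000887). At 0.5 h it was 0.49 ± 0.17 and not called (adjusted p = 0.056), and without 0.5 h replicate 2 it was called (0.0405), as in 5 of 14 alternatives (adjusted p 0.022 to 0.29). From 1.5 h to 3 h Plat rose by 0.55 ± 0.16 (adjusted p = 0.033), where 5.36% of all tested genes (811) were called higher, and 359 to 427 without replicate 1 or 2 of 1.5 h or replicate 1 or 3 of 3 h. That step was the one call of Plat that single libraries ended. Leaving out replicate 2 or 3 of 1.5 h gave an adjusted p of 0.19 and 0.0562, and leaving out replicate 1 or 3 of 3 h gave 0.0665 and 0.202. Library totals as the scale (0.0749) and a fit of only these 2 groups (0.0675) also ended it, over a range of 0.00538 to 0.202. From 3 h to 6 h Plat fell by 0.65 ± 0.16 on the log2 scale (adjusted p = 0.00405), where 13.2% of all tested genes (1996) were called lower, and 1287 without 3 h replicate 2 or 1255 without 6 h replicate 2. From 6 h to 12 h the log2 fold change was -0.43 ± 0.16 (adjusted p = 0.082), called without 6 h replicate 3 alone (0.0459, range over 14 alternatives 0.0459 to 0.41).

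Plau (ENSMUSG00000021822, chromosome 14, 20836660 to 20843385), urokinase, was scarcer and moved less. Its level was 3.72, 5.14 and 3.44 CPM in sham, 6.99, 4.51 and 5.46 CPM at 3 h, 5.14, 9.15 and 9.65 CPM at 6 h and 5.44, 8.29 and 4.89 CPM at 12 h, with 3.89 to 6.15 CPM in the ischemia, 0.5 h, 1 h and 1.5 h libraries. At 6 h a pair of libraries stood above every library of the study's other groups and replicate 1 lay at the level of the highest sham library. The log2 fold change was 0.96 ± 0.25 (SE) at 6 h (adjusted p = 0.00305), the only call of Plau against sham, and 0.46 ± 0.25 at 3 h (adjusted p = 0.16) and 0.60 ± 0.25 at 12 h (adjusted p = 0.072). At 12 h it was called in 3 of 14 alternatives, among them without sham replicate 2 (0.0451) and without 12 h replicate 3 (0.0422), over a range of 0.023 to 0.37. The step from 3 h to 6 h was 0.49 ± 0.24 (adjusted p = 0.14), called without 6 h replicate 1 alone (0.0257, range over 14 alternatives 0.0257 to 0.41).

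**Figure D3:**
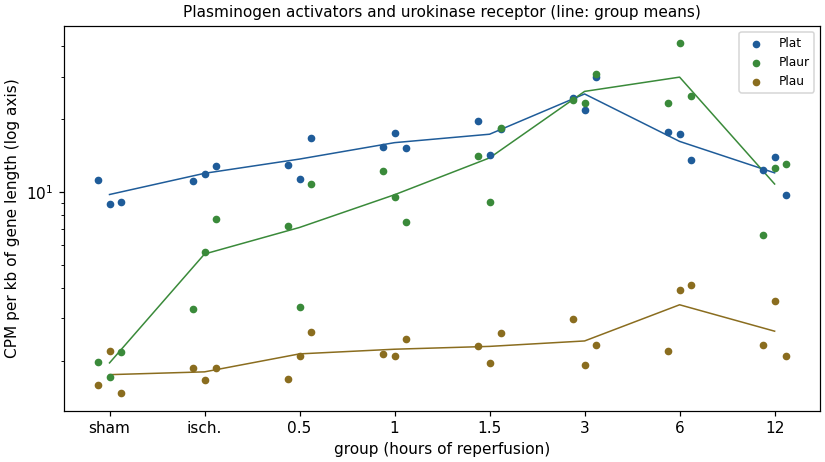
Points are the 24 libraries and lines join the group means of Plat, Plaur and Plau, in CPM per kb of gene length on a log axis, over the 8 groups. Plat lies above Plaur in sham (9.75 against 1.96 on average), Plaur lies above Plat at 6 h (29.8 against 16.2), and Plau stays lowest at 6 h at 3.41.

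Thbd (ENSMUSG00000074743, chromosome 2, 148404466 to 148408188), thrombomodulin, came after Plaur in size of change at 6 h. It was at 60.2, 56.0 and 54.7 CPM in sham, 62.5, 63.1 and 73.8 CPM after ischemia, 91.2, 68.5 and 104 CPM at 0.5 h and 86.2, 94.9 and 79.8 CPM at 1 h. It then stood at 113, 107 and 157 CPM at 1.5 h, 166, 189 and 164 CPM at 3 h, 226, 368 and 154 CPM at 6 h and 106, 90.0 and 125 CPM at 12 h. All reperfused libraries were above all sham libraries, and the 6 h libraries were spread over a wider range than those of any other group.

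Thbd was higher than in sham by 1.14 ± 0.22 (SE, log2) at 1.5 h (adjusted p = 0.00142), 1.60 ± 0.22 at 3 h (adjusted p = 6.41e-06), 2.13 ± 0.22 at 6 h (adjusted p = 4.86e-08) and 0.91 ± 0.21 at 12 h (adjusted p = 0.0022). At 0.5 h (0.63 ± 0.21, adjusted p = 0.056) and 1 h (0.61 ± 0.21, adjusted p = 0.067) it was not called. The 0.5 h value was called without 0.5 h replicate 2 (0.0385), as in 6 of 14 alternatives (adjusted p 0.00062 to 0.21), and the 1 h value in 4 of 14 (0.00097 to 0.16). From 3 h to 6 h the rise was 0.53 ± 0.21 and not called (adjusted p = 0.064), and without 6 h replicate 3, the lowest library of that time, it was called (0.0056, range over 14 alternatives 0.002 to 0.66). From 6 h to 12 h Thbd fell by 1.22 ± 0.21 on the log2 scale (adjusted p = 0.000545), where 6.68% of all tested genes were called lower. Over all genes that step had 982 calls higher and 1010 lower, and 1768 and 422 with library totals as the scale. Without 6 h replicate 2 it had 368 and 418, without 12 h replicate 1 525 and 615, and without 12 h replicate 2 550 and 636.

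Procr (ENSMUSG00000027611, chromosome 2, 155751117 to 155755471), which presents protein C to the thrombin and thrombomodulin complex, followed a like course at a far lower level. Its libraries held only 8 to 77 reads of the gene. It was at 1.03, 0.548 and 1.44 CPM in sham, 0.536 to 2.52 CPM in the ischemia, 0.5 h, 1 h and 1.5 h libraries, 3.79, 2.07 and 3.71 CPM at 3 h, 4.26, 4.69 and 2.99 CPM at 6 h and 0.934, 2.68 and 1.14 CPM at 12 h. All 3 h and 6 h libraries were above the sham range, and the 12 h libraries were all below those of 6 h.

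The log2 fold change of Procr against sham was 1.68 ± 0.44 (SE) at 3 h (adjusted p = 0.00451) and 2.00 ± 0.43 at 6 h (adjusted p = 0.000575), and at 12 h 0.68 ± 0.45 (adjusted p = 0.27). From 6 h to 12 h it fell by 1.32 ± 0.40 on the log2 scale (adjusted p = 0.0295). Single libraries decided that last call, since leaving out replicate 1 or 2 of 6 h gave an adjusted p of 0.0669 and 0.126, and leaving out replicate 1 or 3 of 12 h gave 0.135 and 0.1. The call was also lost with library totals as the scale (0.0683), with only these 2 groups (0.065) and with limma-voom (0.0518), over a range of 0.00291 to 0.135.

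Thrombomodulin and the protein C receptor are typical of endothelium, the lining of vessels, and a list of general endothelial markers stayed closer to sham at 3 h and 6 h than either gene. The 16 endothelial markers summed to 1720 to 1854 CPM in sham, 2121 to 2311 CPM at 3 h, 2147 to 2228 CPM at 6 h and 1679 to 1844 CPM at 12 h. Of these markers 8 were called higher and 2 lower at 3 h, 6 higher and 1 lower at 6 h, and 3 higher and 4 lower at 12 h. A list of 7 markers of endocardium and veins summed to 124 to 141 CPM in sham and 184 to 275 CPM at 3 h. The sum was 201 to 332 CPM at 6 h and 350 to 426 CPM at 12 h. At 3 h 3 of the 7 were called higher, and at 6 h and 12 h 4 of 7 (Ackr1, Lrg1, Ephb4 and Plvap). Between 6 h and 12 h that sum went up while Thbd and Procr fell. Over that step 1 of the 7 markers was called higher (Lrg1) and 0 lower, with a median log2 fold change of 0.16. The share of the changes in Thbd and Procr that goes with the amount or kind of endothelium was not tested.

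F3 (ENSMUSG00000028128, chromosome 3, 121723537 to 121735048), tissue factor was highest at 3 h and lowest at 6 h and 12 h. It was at 13, 18.4 and 19.5 CPM in sham, 17.1, 16.2 and 13.8 CPM after ischemia, 13.9, 11.6 and 20.2 CPM at 0.5 h and 21.3, 17.5 and 16.5 CPM at 1 h. The libraries of 1.5 h held 20.2, 16.5 and 18.7 CPM, those of 3 h 24.5, 24.9 and 23.5 CPM, those of 6 h 10.3, 10.5 and 12.0 CPM and those of 12 h 7.42, 8.79 and 14.8 CPM. All 3 h libraries were above all other libraries, all 6 h libraries were below the sham range, and at 12 h replicate 3 lay within that range.

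From 3 h to 6 h F3 fell by 1.15 ± 0.21 (SE) on the log2 scale (adjusted p = 0.000296), a call kept in every alternative. Against sham its log2 fold change was -0.63 ± 0.21 at 6 h (adjusted p = 0.0179) and -0.71 ± 0.21 at 12 h (adjusted p = 0.0127), both called. At 3 h its log2 fold change was 0.52 ± 0.21 and it was not called (adjusted p = 0.0527), although 9 of 14 alternatives called it (adjusted p 0.013 to 0.24), among them without sham replicate 3 (0.0475). Without sham replicate 3 the 6 h call was lost (adjusted p = 0.0826), as it was without sham replicate 2 (0.0647), 6 h replicate 1 (0.0548) or 6 h replicate 2 (0.0558), with 0.00274 to 0.0826 over all alternatives. The 12 h call was lost without sham replicate 2 (0.0517), sham replicate 3 (0.065), 12 h replicate 1 (0.0929) or 12 h replicate 2 (0.0724), with 0.00053 to 0.0929 over all alternatives.

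Promoters of F3, Procr, Tfpi and Tfpi2 were read from RefSeq's table (GRCm38.p6, 250 bases before to 50 after a start site), which holds 1 window each for F3 and Procr, 2 for Tfpi and 3 for Tfpi2. The AP-1 motif, TGACTCA or its reverse complement TGAGTCA, stood in 2 of these 7 windows, those of F3 and Procr, beside 5.20% of 32851 mouse promoters of the same length. The 2 are shown because they moved differently: Procr was called higher at 3 h and 6 h, and F3 was called lower at 6 h and 12 h. Each line gives 101 bases, read 5′ to 3′ along the gene, with the motif in capitals and 47 bases on either side.
Procr: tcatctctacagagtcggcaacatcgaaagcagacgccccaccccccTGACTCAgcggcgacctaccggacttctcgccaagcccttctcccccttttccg
F3: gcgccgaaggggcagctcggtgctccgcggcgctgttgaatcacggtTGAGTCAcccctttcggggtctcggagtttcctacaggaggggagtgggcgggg

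The Procr window is chr2:155751016-155751116 and its motif starts 154 bases before the RefSeq start site. The F3 window is chr3:121723355-121723455 with the motif starting 135 bases before the start site, and both lie on the plus strand. Other motifs were searched on both strands of the same promoters. The EGR motif GCGNGGGCG was found in Tfpi2 and in 5.55% of all promoters. The hypoxia motif ACGTG was found in Tfpi and Tfpi2 and in 19.6% of all promoters. The cyclic AMP element TGACGTCA, in 1.79% of all promoters, was found in none of the 4 genes, and a short NF-kappaB motif in all 4 and in 50.8% of all promoters. The KLF motif CCACCC was found in F3, Procr and Tfpi2 and in 31.5% of all promoters. The TATA motif TATAAA, in 13.6% of all promoters, was found in F3 and Tfpi, both times on the opposite strand. The F3 match starts 43 bases after the start site. The Tfpi match starts 127 bases before it and is in 1 of the 2 Tfpi windows. Motif matches are descriptions of these letters, and binding was not measured.

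Tfpi (ENSMUSG00000027082, chromosome 2, 84432855 to 84476775), which blocks tissue factor and activated factor X, was the most abundant of the 9 genes per length in sham and moved little. It was at 112.9, 120.2 and 91.0 CPM in sham, 116.7, 107.1 and 76.4 CPM after ischemia, 72.1, 72.4 and 85.3 CPM at 0.5 h, 73.1, 78.3 and 92.9 CPM at 6 h and 74.7 to 108 CPM at the other times. The 0.5 h libraries all lay below the sham range, and at 6 h replicate 3 lay within it. The log2 fold change was -0.50 ± 0.16 (SE) at 0.5 h (adjusted p = 0.0473) and -0.41 ± 0.16 at 6 h (adjusted p = 0.0408), and at the other times it lay between -0.29 and -0.11 with no call.

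Both Tfpi calls were close to the threshold. The 0.5 h call was lost without sham replicate 1 (adjusted p = 0.13), sham replicate 2 (0.166), 0.5 h replicate 1 (0.159), 0.5 h replicate 2 (0.13) or 0.5 h replicate 3 (0.0664), with library totals as the scale (0.098), with a term for replicate number (0.0575) and with limma-voom (0.0501), over a range of 0.00835 to 0.166. The 6 h call was lost without sham replicate 1 (0.106), sham replicate 2 (0.159), 6 h replicate 1 (0.14) or 6 h replicate 2 (0.111), over a range of 0.0211 to 0.159. Without ischemia replicate 3, Tfpi was lower at 0.5 h than after ischemia (adjusted p = 0.0417, range over 14 alternatives 0.0417 to 0.98) and changed across the 8 groups (adjusted p = 0.0393, range over 31 alternatives 0.0393 to 0.33).

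Tfpi2 (ENSMUSG00000029664, chromosome 6, 3962595 to 3988919), a Kunitz-type inhibitor that acts on plasmin and other proteases of the matrix, was called higher at 3 h and 6 h. With 9 to 82 reads per library it was at 1.67, 1.71 and 2.48 CPM in sham, 0.539 to 2.90 CPM in the ischemia, 0.5 h, 1 h and 1.5 h libraries, 3.91, 2.96 and 4.29 CPM at 3 h, 4.44, 5.0 and 4.42 CPM at 6 h and 2.80, 3.54 and 3.01 CPM at 12 h. The 3 h, 6 h and 12 h libraries were all above the sham range. Its log2 fold change was 0.94 ± 0.29 (SE) at 3 h (adjusted p = 0.014), 1.25 ± 0.29 at 6 h (adjusted p = 0.00099) and 0.68 ± 0.29 at 12 h (adjusted p = 0.075, not called). Without sham replicate 1 (adjusted p = 0.0648), sham replicate 2 (0.0607) or 3 h replicate 3 (0.0659) the 3 h call was lost, over a range of 0.00497 to 0.0659.

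Vwf (ENSMUSG00000001930, chromosome 6, 125546774 to 125686679), the large protein that tethers platelets to injured vessel walls and carries factor VIII, was called in 0 comparisons by edgeR and in 0 by limma-voom or DESeq2, with an unadjusted p under 0.05 in 1 (1.5 h against 1 h). Its level was 42.1, 47.6 and 88.6 CPM in sham, 50.7, 41.5 and 72.7 CPM after ischemia, 88.6, 47.8 and 49.6 CPM at 0.5 h and 37.0, 75.2 and 59.0 CPM at 1 h. It was 54.0, 108 and 118 CPM at 1.5 h, 82.3, 54.1 and 88.8 CPM at 3 h, 94.1, 79.5 and 59.8 CPM at 6 h and 50.5, 73.3 and 87.9 CPM at 12 h. Every group overlapped sham. The largest log2 fold change against sham was 0.65 ± 0.32 (SE) at 1.5 h (adjusted p = 0.23), so a change of that size could not be separated from the spread of these libraries. With no filter on low counts it was called at 1.5 h and 6 h against sham (adjusted p = 0.000115 and 0.0186), at 1.5 h against 1 h (7.55e-05) and across the 8 groups (3.24e-08).

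**Figure D4:**
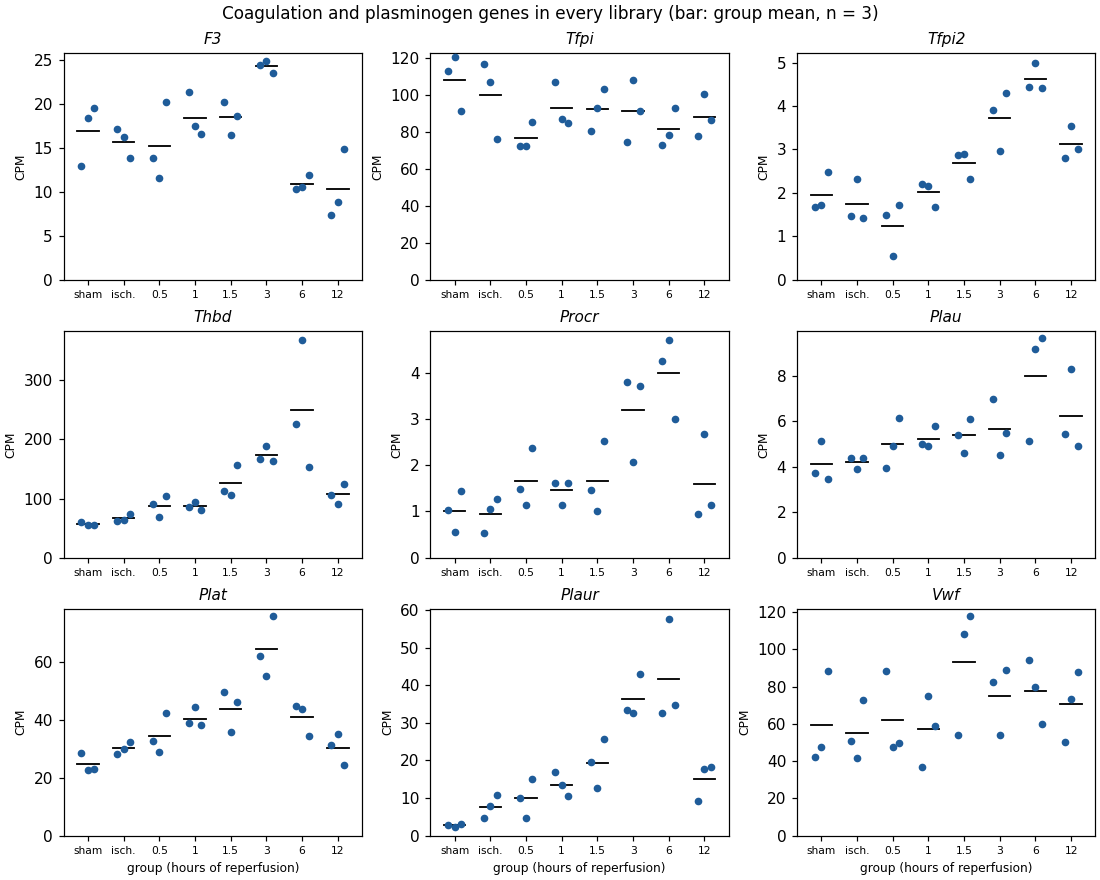
Each panel shows 1 gene in CPM on an axis that starts at 0, with the 24 libraries as points over the 8 groups and a bar at each group mean of 3 libraries. Plaur, Thbd, Procr, Plau and Tfpi2 have their highest means at 6 h, Plat and F3 at 3 h, and the 3 sham libraries of Vwf spread from 42.1 to 88.6 CPM.

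Levels of different genes were compared per length, in CPM per kb of gene length. In sham the means ran from Tfpi (19.8 ± 2.78, SD) over Thbd (15.3 ± 0.767) and Plat (9.75 ± 1.30) to F3 (6.71 ± 1.38) and Vwf (3.70 ± 1.58), whose ranges overlapped. Plaur (1.96 ± 0.230), Plau (1.75 ± 0.388) and Tfpi2 (1.19 ± 0.278) followed with ranges that overlapped between neighbours, and Procr was lowest (0.495 ± 0.220). At 6 h Thbd was first (66.9 ± 29.3) and Plaur second (29.8 ± 9.88), above Plat (16.2 ± 2.29) and Tfpi (14.9 ± 1.88), which overlapped. Vwf (4.84 ± 1.07), F3 (4.33 ± 0.355), Plau (3.41 ± 1.05) and Tfpi2 (2.82 ± 0.201) came next, with ranges that overlapped between neighbours, and Procr stayed last (1.96 ± 0.436). Plaur thus moved from 6th place in sham to 2nd at 6 h. By its mean F3 went from 4th to 6th, with a range that overlapped that of Vwf in both groups. These places depend on the deposited gene lengths, 16064 bases for Vwf, and other lengths were not tried.

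Of 64 other genes of clotting and plasminogen biology, 40 were tested. Called higher and lower than sham were 5 and 1 at 0.5 h, 7 and 1 at 1 h, 5 and 1 at 1.5 h, 16 and 4 at 3 h, 18 and 9 at 6 h and 15 and 6 at 12 h. The shares over all tested genes were 7.43% and 4.48% at 0.5 h, 7.46% and 3.41% at 1 h and 4.55% and 2.99% at 1.5 h. They were 18.4% and 16.9% at 3 h, 24.6% and 22.9% at 6 h and 16.9% and 14.9% at 12 h. The median log2 fold change of the 40 genes was 0.37 at 3 h, 0.44 at 6 h and 0.31 at 12 h. The 22 genes that were counted but did not pass the filter, among them plasminogen itself (Plg), prothrombin (F2), the fibrinogen chains Fga, Fgb and Fgg, and antithrombin (Serpinc1), did not exceed 0.707 CPM in any library. The proteins named here are made mainly by the liver.

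Among 11 tested genes for plasminogen, its inhibitors and its receptors, 6 were called higher and 3 lower at 6 h, beside 24.6% and 22.9% of all tested genes. Anxa2, a cell-surface site for plasminogen and Plat, rose by 1.67 ± 0.15 at 6 h, and Itgam and Itgb2, the 2 chains of a leukocyte integrin that binds Plaur, rose by 2.54 ± 0.23 and 1.19 ± 0.22. Vldlr, one of the receptors that take up inhibited activators, fell by 1.44 ± 0.14 on the log2 scale at 12 h (adjusted p = 6.3e-08).

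The clotting factor list had 9 tested genes, of which 3 were called higher and 3 lower at 6 h, beside 24.6% and 22.9% of all tested genes. F10, factor X, had 1 read in the 3 sham libraries together, 143 at 6 h and 278 at 12 h, ratios of CPM of 124 (exact 95% interval 21.8 to 4917, counting error only) and 213 (38.0 to 8462). Of 8 tested genes for the processing, storage and partners of Vwf, 4 were called higher and 1 lower at 3 h, beside 18.4% and 16.9% of all tested genes. Selp, which is stored beside Vwf in endothelium and platelets, went from 0.166 ± 0.105 CPM in sham to 16.6 ± 1.46 CPM at 3 h (log2 fold change 6.60 ± 0.51, adjusted p = 4.8e-09). Thbs1, a matrix protein of platelets and injured tissue, went from 40.4 ± 5.47 CPM in sham to 728 ± 140 CPM at 6 h (4.17 ± 0.40, adjusted p = 1.5e-08), and Mmrn1 fell by 1.49 ± 0.21 on the log2 scale at 12 h (adjusted p = 9.0e-06). Mmrn1 is also on the list of lymphatic endothelium markers. Of the 5 tested genes of that list, 1 was called higher and 3 lower at 12 h, Mmrn1 among the latter. Whether Mmrn1 moved with those cells was not tested. The 13 genes of the platelet list summed to 18.1 to 20.8 CPM in sham and 36.1 to 59.2 CPM at 6 h. Of its 7 tested genes, 3 were called higher and 1 lower at 6 h. Whether Selp and Thbs1 moved with platelets was not tested.

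All 5 vessel-wall genes that restrain platelets were tested, and 4 were called higher at 6 h, beside 24.6% of all tested genes. Nt5e, which makes adenosine, was up by 2.17 ± 0.25 at 6 h (adjusted p = 3.0e-07), Nos3, endothelial nitric oxide synthase, by 1.85 ± 0.21 at 3 h (adjusted p = 7.5e-07), and Ptgis, prostacyclin synthase, by 1.59 ± 0.24 at 6 h (adjusted p = 7.8e-06). At 12 h 1 of the 5 was called higher (Ptgis), beside 16.9% of all tested genes. Nt5e (0.11 ± 0.25, adjusted p = 0.77) and Nos3 (0.28 ± 0.21, adjusted p = 0.33) were not called at that time. Natural anticoagulants and clotting serpins had 4 tested genes, 2 called higher and 1 lower at 6 h, beside 24.6% and 22.9% of all tested genes. Of 3 tested thrombin receptors, F2r was called higher at 1 h, 1.5 h and 3 h and F2rl1 at 6 h and 12 h.

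For each of the 9 genes the most similar of 10940 genes was found by Pearson's correlation of log2 CPM over the 24 libraries, which share the time course and are not independent replicates of one condition. Plaur was closest to Thbs1 (r = 0.98), Myc and Ptx3, and Thbd to Sphk1 (r = 0.96), Xirp1 and Itpkc. Plat was closest to Csf3 (r = 0.91), Bag3 and Cnn3, Tfpi2 to Vcam1 (r = 0.89), Ttll7 and Ddx3x, and Procr to Epha2 (r = 0.86), Tgif1 and Slc35e4. Csf3 averaged only 0.027 CPM in sham and 1.50 CPM at 6 h, so its low values rest largely on the prior count of 2 added before the log. F3 was closest to Cabcoco1 (r = 0.86), 9530068E07Rik and Wt1, Plau to Sap30bp (r = 0.84), Phlda1 and Cpsf7, Tfpi to Taf9b (r = 0.81), Rap1a and Tmem123, and Vwf to Cdc42bpa (r = 0.73), Ptgs1 and Trio. Among the 9 themselves, Plaur and Thbd were the most alike (r = 0.91), then Plaur and Procr (r = 0.83) and Thbd and Procr (r = 0.80), while F3 with Plaur gave r = 0.07. Wt1 marks mesothelium, the outer lining of the heart, and 7 measured mesothelial markers summed to 28.7 to 32.2 CPM in sham, 36.1 to 45.5 CPM at 3 h, 25 to 29.8 CPM at 6 h and 12.9 to 15.4 CPM at 12 h. That sum includes Wt1 itself, the one marker of the 7 called higher at 3 h, where the median log2 fold change of the 7 was -0.18. Fibroblast markers summed to 1428 to 1502 CPM in sham, 1054 to 1524 CPM at 3 h and 624 to 945 CPM at 6 h, and smooth muscle and pericyte markers to 1707 to 1743, 1527 to 1814 and 979 to 1309 CPM. Single markers went both ways at 6 h against sham. Of 10 fibroblast markers 3 were called higher and 6 lower, and of 10 smooth muscle and pericyte markers 2 higher and 4 lower. The part of these cells in the course of F3 was not tested.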

How the data were processed

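Per the file headers, the authors deposited whole-number counts of reads per gene for each of 24 libraries, and the count of uniquely mapped reads with duplicates kept was used. The submitters' processing notes name the build mm10, while aligner, counter, strand setting and annotation were not given in the sources used here. Duplicates made up 39.2% to 54.5% of unique reads. No member gene overlaps another in GENCODE vM21 (GRCm38), the source of positions. Symbols were found for 45143 of 46078 identifiers (98.0%).

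All libraries entered 1 edgeR 4.0.16 quasi-likelihood fit (R 4.3.3) with TMM factors, filterByExpr (minimum count 10, minimum total 15), 8 group terms and 16 residual degrees of freedom. Each group was compared with sham and with the time before it. The sham libraries are shared by 7 comparisons. The procedure was tested on simulated data. Alternatives were library totals, no filter, duplicates removed, multiply mapped reads kept, a replicate term, only the groups compared, each library left out, limma-voom (limma 3.58.1) and DESeq2 1.42.0.

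Members and lists were chosen with earlier results of these data known. All 9 members are named. Of the other pathway genes, at most 12 are named: the largest absolute log2 fold changes among those called against sham with a group mean of at least 5 CPM. The 3 genes most like each member had to reach the same CPM minimum. 1 gene that this rule takes and 1 promoter are not reported here. Plg, F2, Fga, Fgb, Fgg, Serpinc1, F2r, F2rl1, Ccr2, Ly6c2, Ackr1, Lrg1, Ephb4 and Plvap were named after their values were seen. Intervals cover counting error only, since they were computed on reads pooled over the 3 libraries of a group. Duplicates were kept and reads carry no molecular identifiers, so the intervals may understate even that error.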

Additional observations from a re-analysis of the deposited data

Results flagged for a closer look

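In 6 places the distance of a member from sham differed between neighbouring reperfusion times, by a direct edgeR test of the later against the earlier time. Between 1.5 h and 3 h Plat gained 0.55 on the log2 scale. Between 3 h and 6 h F3 changed by -1.15 and Plat by -0.65. Between 6 h and 12 h Thbd changed by -1.22, Procr by -1.32 and Plaur by -1.47. The calls for the Plat rise, for Procr and for Plaur were lost under at least 1 alternative, with values beside each result above, and those for F3, the Plat fall and Thbd were kept in all of them.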

How the results depend on the processing

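Of 29 called changes of single members, 21 kept their direction and their call in every alternative, 8 lost the call in at least 1, and 0 turned direction over 406 alternative values. The cause was not tested for any of them. The number of the 9 genes called after ischemia was 1 with no filter (0 in the main test). At 0.5 h against sham it was 4 with no filter, 4 with only the 2 groups compared, 4 with DESeq2, 1 with limma-voom, 1 with the replicate block and 1 to 3 when leaving out 1 library (2 in the main test). At 12 h against sham it was 6 with library totals (3 in the main test), adding Plat, Plau and Tfpi2. For 0.5 h against ischemia it was 0 to 1 when leaving out 1 library, and for 1.5 h against 1 h it was 2 with no filter (0 in the main test). For 3 h against 1.5 h it was 0 with library totals, 3 with no filter, 2 with duplicates removed and 0 to 1 when leaving out 1 library (1 in the main test), and for 12 h against 6 h it was 1 with limma-voom (3 in the main test). Replicate numbers did not pair the libraries: over 84 same-numbered pairs the correlation of deviations ran from -0.179 to 0.199, and 0 of 28 pairs of groups had all 3 above 0.1. The replicate block ended the call of Tfpi at 0.5 h and added F3 at 3 h (adjusted p = 0.0464). Depth limits Procr, with 8 to 77 reads per library, and Tfpi2, with 9 to 82, more than the other 7 genes.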

Other observations

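Ratios between genes within a library, in CPM per kb, set members beside each other. Thbd stood at 2.07 times F3 in sham (1.90 to 3.15), 14.9 times at 6 h (8.72 to 23.7) and 6.95 times at 12 h. Tfpi stood at 3.03 times F3 in sham (2.16 to 4.03) and 1.79 times at 3 h (1.41 to 2.00), below the sham range, while 6 h (3.29 to 3.59) and 12 h (2.70 to 5.28) overlapped sham. Plat stood at 6.20 times Plau in sham (4.06 to 7.07) and 11.3 times at 3 h (8.22 to 12.8), above the sham range, while 6 h (3.28 to 8.04) overlapped it. These are ratios of messenger RNA within bulk tissue, given with no test, and protein or activity was not measured.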
